A study of Mus musculus with 6 samples.

Results

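The genes of the major histocompatibility complex (MHC) and of antigen presentation were followed across the cell types of mouse islets: every gene whose symbol begins with H2-, together with B2m, Cd74, Tap1, Tap2, Tapbp, Psmb8, Psmb9, Psmb10, and Ciita. These are 43 of the 32285 genes in the count tables. The class I side holds 31 of them and class II holds 11. The remaining gene, H2-Ke6, encodes a steroid dehydrogenase and no MHC chain and was kept apart. All 43 were found in GENCODE vM21 (GRCm38), and 39 lie on chromosome 17, between positions 33915899 and 37483552. B2m lies on chromosome 2, Psmb10 on chromosome 8, Ciita on chromosome 16, and Cd74 on chromosome 18.

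Islets were taken for single-cell RNA-Seq from C57/BL6 mice aged 12 to 14 weeks, 3 of them WT and 3 β14-3-3ζ–KO, with 1 library per mouse. The KO mice carried Ins1-CreThor and Ywhaz alleles with loxP sites around exon 4. Cre under the insulin promoter is meant to delete the gene in β cells, and the study reports that Ywhaz fell in no other cell type. Per the study's methods, the WT controls were littermates that also carried Cre. The values are counts of UMIs (unique molecular identifiers, 1 per captured RNA molecule), summed over the cells of a type in each library and scaled to counts per 1000000 UMIs of those cells (CPM).

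Class I molecules display peptides from inside the cell to CD8 T cells. The heavy chain pairs with the light chain β2-microglobulin (B2m), and peptides cut by the proteasome reach it through the transporter Tap1–Tap2 with the help of tapasin (Tapbp). Class II molecules display peptides from endocytosed material to CD4 T cells, chiefly on B cells, macrophages, and dendritic cells, where the invariant chain Cd74 guards the groove until H2-DM exchanges its remnant for a peptide.

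After quality filters 25250 cells were kept, with 3311 to 25478 UMIs per cell in the median of a library. The 10 cell types compared had 10 or more cells in each library. Clusters too shallow for a name were left out, 7991 cells in all and at least 78 per library. They were uneven, with 3642 cells in WT replicate 2 and 440 in KO replicate 2. Among them was a cluster of 345 cells with 8 macrophage markers past the threshold. An unnamed cluster of 286 cells, at least 30 per library, was also left out. Clusters were formed without the 43 genes and named from markers that do not include them. A cluster led by Ppy and Pyy had 2 markers past the threshold, under the 3 needed for a name, and is called Ppy-led. The study took out KO β cells in which Ywhaz deletion was incomplete, by a criterion it does not spell out. Here any KO cell of the β type with a Ywhaz UMI was dropped. This left 4846 β cell–like cells. WT cells were not filtered in this way. The median UMIs per kept β cell–like cell were 41507, 26473, and 30817 in WT and 26033.5, 21824.5, and 27894 in KO replicates 1 to 3. Before that step Ywhaz was between 126 and 167 CPM in WT and between 16.7 and 19.0 CPM in KO cells of this type. UMIs come from the 3′ end of the transcript and not from exon 4, so this reads the amount of RNA and not the deletion itself. The replicate 2 library of each genotype stood apart, with 1238 (WT) and 1581 (KO) B cell–like cells, whereas WT replicate 3 and KO replicate 1 held 30 and 13. Dendritic-like cells (262 cells, 2 to 127 per library) and a cluster led by Jchain and immunoglobulin genes (156 cells) are described without a test.

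Of the 43 genes, 31 had more than 100 UMIs in the kept cells, 6 had 1 to 10, and 6 had none. The rarely read genes were all nonclassical heavy chains: H2-M10.2, H2-M10.1, H2-M10.3, H2-M10.4, H2-M11, and H2-M1 had 0 UMIs, and H2-Q1, H2-T3, H2-M9, H2-M10.5, H2-M10.6, and H2-M5 had at most 10. The counts come from 3′ ends, some of which are near copies of each other. Among the 90-base windows in the last 400 bases of its transcripts, H2-Q6 shared 32.2% with other genes, H2-T22 16.8%, H2-D1 10.8%, H2-Q4 9.65%, and H2-K1 2.69%. B2m, Tap1, Tap2, Tapbp, and the immunoproteasome genes shared none. H2-Ke6 shared 56.5%, with Gm20427, so its counts are uncertain.

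The promoter windows of 4 genes are shown because their levels followed different patterns across the cell types: B2m and H2-K1, whose products form 1 molecule, H2-Q2, whose level was higher in endocrine than in immune types, and H2-Aa of class II. Each runs from 250 bases before to 50 after the RefSeq start (GRCm38.p6). Capitals mark matches, on either strand, to the CCAAT box (CCAAT) and to GAAANNGAAA, a spacing bound by interferon regulatory factors.
B2m, chr2:122147437-122147736, plus strand: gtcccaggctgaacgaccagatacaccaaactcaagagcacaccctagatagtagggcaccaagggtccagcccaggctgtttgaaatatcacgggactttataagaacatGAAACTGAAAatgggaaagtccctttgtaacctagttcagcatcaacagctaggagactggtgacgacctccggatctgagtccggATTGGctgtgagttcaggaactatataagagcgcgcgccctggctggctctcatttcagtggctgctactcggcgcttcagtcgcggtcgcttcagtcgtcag
H2-K1, chr17:34000298-34000597, minus strand: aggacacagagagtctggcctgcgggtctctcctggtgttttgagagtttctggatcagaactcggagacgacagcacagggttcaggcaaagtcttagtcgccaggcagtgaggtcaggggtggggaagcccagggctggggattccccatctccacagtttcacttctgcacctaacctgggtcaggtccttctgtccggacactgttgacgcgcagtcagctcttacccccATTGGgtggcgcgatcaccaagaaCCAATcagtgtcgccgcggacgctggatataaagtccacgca
H2-Q2, chr17:35342057-35342356, plus strand: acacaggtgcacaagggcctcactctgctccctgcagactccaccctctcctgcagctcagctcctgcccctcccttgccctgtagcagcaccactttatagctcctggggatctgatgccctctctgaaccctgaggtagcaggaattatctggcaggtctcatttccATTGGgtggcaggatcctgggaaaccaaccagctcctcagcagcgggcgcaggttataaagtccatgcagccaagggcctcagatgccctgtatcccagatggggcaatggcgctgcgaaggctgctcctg
H2-Aa, chr17:34287774-34288073, minus strand: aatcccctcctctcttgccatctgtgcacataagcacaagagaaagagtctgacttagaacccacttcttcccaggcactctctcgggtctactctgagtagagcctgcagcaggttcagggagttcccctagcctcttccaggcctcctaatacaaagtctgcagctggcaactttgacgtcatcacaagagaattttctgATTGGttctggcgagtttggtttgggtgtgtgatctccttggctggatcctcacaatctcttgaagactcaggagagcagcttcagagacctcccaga
A window was given for 37 of the 43 genes. Some genes have more than 1 window. Counted on 1 window per gene, CCAAT was present in 31 of these genes and in 7 of the 8 class II genes with a window. With every window of a gene read, each of those 8 class II genes had a match. Of all 32851 windows, 37.4% held CCAAT. GAAANNGAAA was present in 3 genes (B2m, H2-T23, and H2-T22), in none of class II, and in 3.44% of all windows. The windows of Psmb9 and Tap1, which are transcribed away from each other, share 275 bases. A match is a description of letters and not a binding site.

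The classical heavy chains H2-K1 and H2-D1, which present most peptides to CD8 T cells, were read in every cell type compared. In β cell–like cells H2-K1 was 277, 365, and 308 CPM in WT and 339, 332, and 344 CPM in KO replicates 1 to 3, a mean of 327 ± 30.9 CPM (SD, n = 6). α cell–like (333 ± 21.4), δ cell–like (423 ± 26.8), and Ppy-led cells (356 ± 30.8) followed it. In the immune types the level was higher: 1017 ± 162 CPM in B cell–like, 1152 ± 146 in macrophage-like, and 1502 ± 280.3 in T cell–like cells. The lowest library of these 3 types (732 CPM) lay above the highest endocrine library (467 CPM). Endothelial-like cells (1105 ± 284 CPM) reached the immune range.

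H2-D1 had a wider gap. It was 127, 147, and 127 CPM in WT and 146, 140.0, and 145 CPM in KO libraries of the β cell–like type, a mean of 139 ± 9.31 CPM. In macrophage-like cells it was 1971, 1815, and 1699 CPM in WT and 2088, 1773, and 1839.6 CPM in KO libraries, a mean of 1864 ± 142 CPM. The number of H2-D1 UMIs per H2-K1 UMI therefore differed between types: 0.425 ± 0.0188 in β cell–like, 0.662 ± 0.0490 in δ cell–like, 0.856 ± 0.0584 in B cell–like, and 1.63 ± 0.184 in macrophage-like cells. The libraries of β cell–like cells (0.403 to 0.458) and macrophage-like cells (1.38 to 1.84) did not overlap. Differences between cell types are given as descriptions here and below, with no test, since the types are clusters of the same cells.

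**Figure D1:**
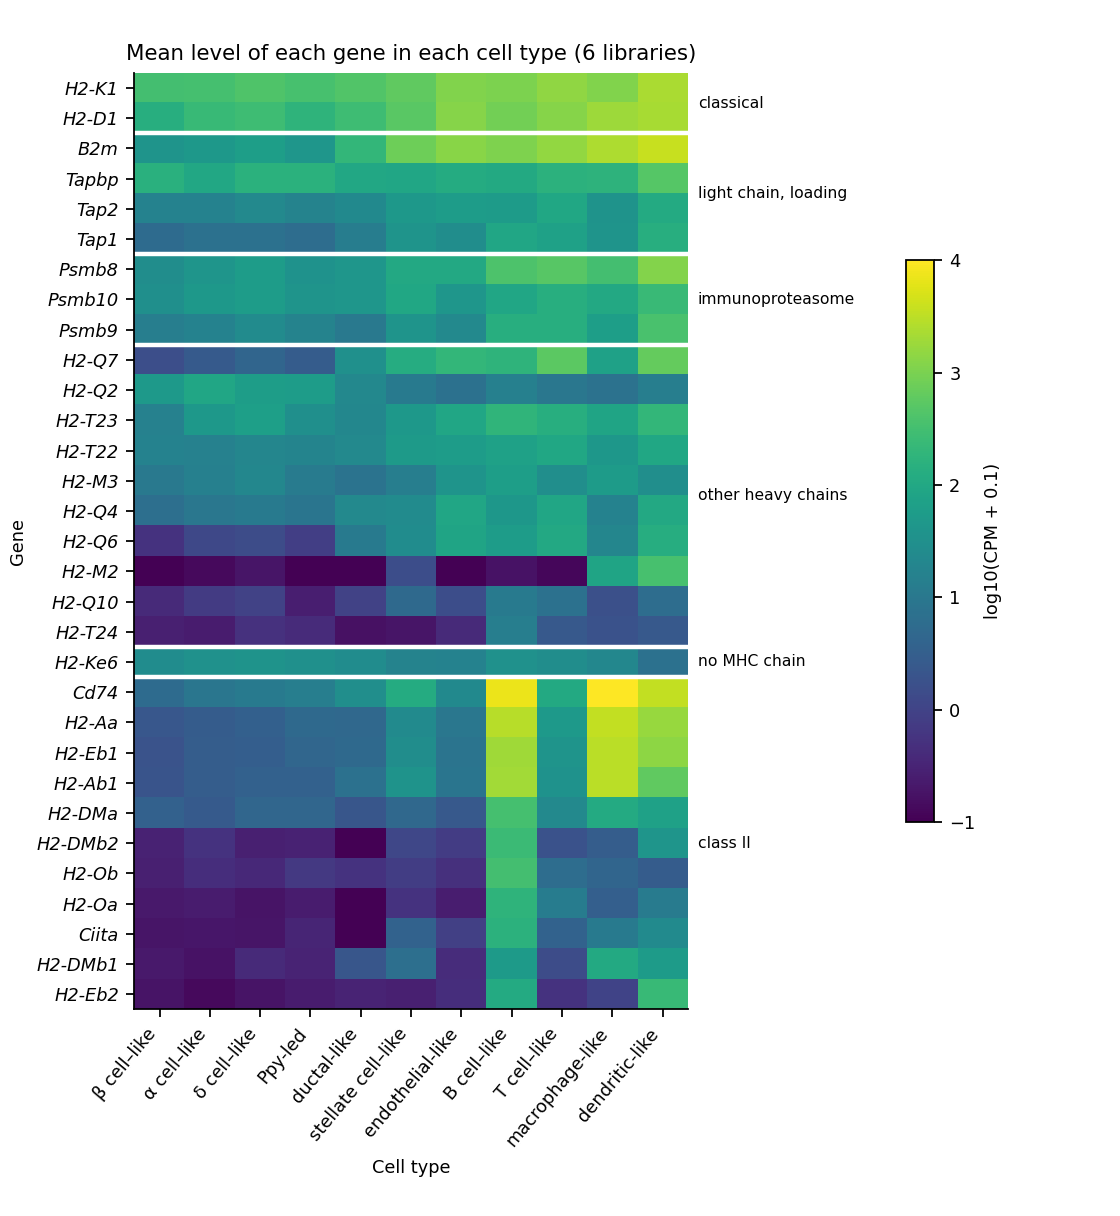
Mean level over the libraries of the 31 genes with more than 100 UMIs (rows, grouped by role) in 11 cell types (columns), as log10(CPM + 0.1) on the colour scale. H2-Q2 is brightest in the endocrine columns. Among the class II rows, Cd74, H2-Aa, H2-Ab1, and H2-Eb1 are bright in the B cell–like, macrophage-like, and dendritic-like columns. H2-DMb2, H2-Oa, H2-Ob, and Ciita are darker in the macrophage-like than in the B cell–like column.

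B2m, the light chain of class I, differed far more between types than its partners. The β cell–like libraries held 24.5, 58.8, and 31.9 CPM in WT and 36.7, 44.6, and 32.9 CPM in KO, and the replicate 2 library was the highest of each genotype. In B cell–like cells it was 1491, 1023, and 768 CPM in WT and 1072, 856, and 1346 CPM in KO libraries, and in macrophage-like cells 2426 ± 213 CPM. The lowest library of the B, T, and macrophage types was more than 10-fold above the highest β cell–like library. Within each library, the mean of these 3 types exceeded the mean of the β, α, and δ types 35.8-fold for B2m (mean over libraries, range 25.8 to 50.5), 6.09-fold for H2-D1 (5.72 to 7.20), and 3.40-fold for H2-K1 (2.92 to 4.36).

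The number of B2m UMIs per UMI of H2-K1 and H2-D1 together, which does not depend on the total by which a level is divided, was 0.0811 ± 0.0202 in the β cell–like type, 0.0817 ± 0.0188 in the α cell–like type, and 0.0896 ± 0.0157 in the δ cell–like type. It was 0.272 ± 0.0703 in ductal-like, 0.546 ± 0.0689 in endothelial-like, 0.574 ± 0.0721 in B cell–like, 0.694 ± 0.114 in stellate cell–like, and 0.805 ± 0.0445 in macrophage-like cells. No library of the endocrine types (highest 0.115) reached the lowest library of these other types (0.229, ductal-like). Among β cell–like cells without a UMI of any listed immune gene, B2m was 38.9 CPM, against 38.2 CPM in all of them.

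The scale mattered for the other class I genes. Hormone transcripts made up 47.0% of the UMIs of β cell–like cells (44.8% to 51.7% over libraries), 34.9% in α cell–like, and 9.51% in B cell–like cells. A β cell–like cell held 30299 UMIs and a B cell–like cell 4995 (means of 6 libraries). In CPM, 28 of the 31 genes with more than 100 UMIs were higher in the immune than in the endocrine mean in all 6 libraries, H2-Q2 was lower in all 6, and Tapbp and H2-Ke6 were mixed. Without the hormone transcripts in the total, 28 were higher and 3 lower (Tapbp, H2-Ke6, and H2-Q2). Counted as UMIs per cell, 20 were higher in all 6, the same 3 were lower, and 8 were mixed: Psmb10, H2-K1, Psmb9, Tap2, H2-Q4, H2-T23, H2-T22, and H2-M3. A β cell–like cell held 9.76 H2-K1 UMIs on average and a B cell–like cell 5.15, with β above B in 6 of 6 libraries per cell and in 0 of 6 in CPM. For B2m the values per cell were 1.10 and 5.55, so the order of these 2 types for B2m was the same on each scale.

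**Figure D2:**
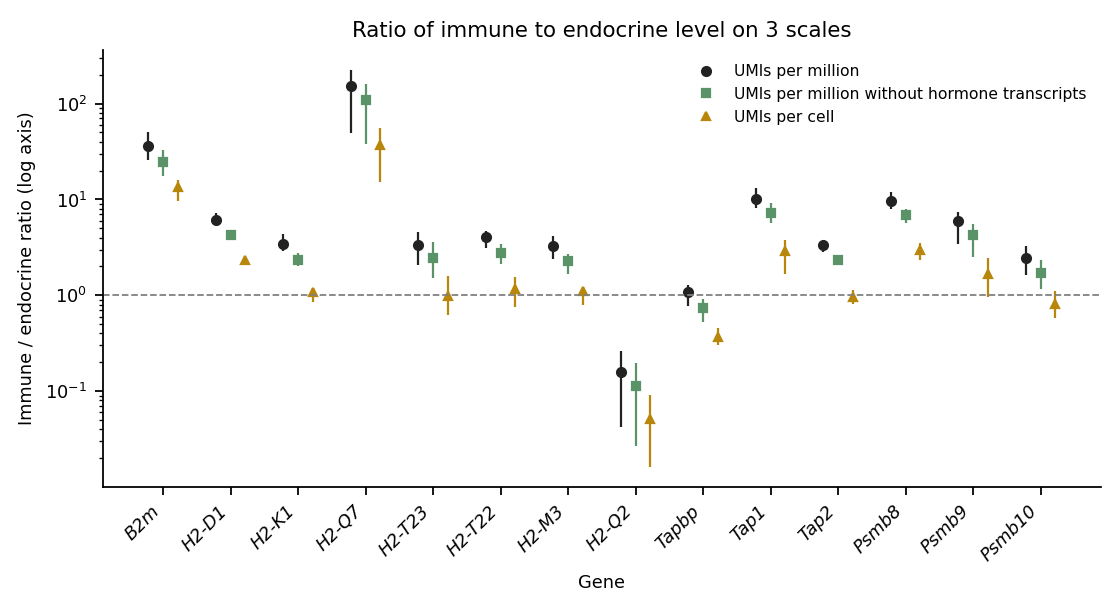
Ratio of the mean immune level (B, T, and macrophage types) to the mean endocrine level (β, α, and δ types) for 14 genes on a log axis, as the mean of 6 libraries (symbols) with the range (lines), on 3 scales. B2m moves from 35.8 (CPM) to 13.4 (UMIs per cell), H2-K1 from 3.40 to 1.08, and H2-Q2 lies below 1 on each scale.

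Among the genes that load class I, tapasin overlapped between β cell–like and macrophage-like cells. Tapbp was 132, 155, and 135 CPM in WT and 166, 133, and 168 CPM in KO libraries of the β cell–like type, and the genotypes overlapped. Its mean was 148 ± 16.9 CPM there, 159 ± 16.8 CPM in δ cell–like, and 167 ± 30.1 CPM in macrophage-like cells, and these ranges overlapped. It was lower in α cell–like cells (92.3 to 115 CPM over libraries), which lay wholly below the macrophage-like libraries (131 to 202 CPM), and in dendritic-like cells its mean was 477 CPM. The peptide transporter differed: Tap1 was 5.53 ± 0.748 CPM in β cell–like and 92.7 ± 13.9 CPM in B cell–like cells, and Tap2 was 16.1 ± 1.56 and 56.3 ± 12.8 CPM.

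The immunoproteasome subunits Psmb8, Psmb9, and Psmb10 take the place of the constitutive subunits Psmb5, Psmb6, and Psmb7 in immune cells and under interferon. Psmb8 was 19.3, 33.7, and 23.2 CPM in WT and 27.3, 30.8, and 31.4 CPM in KO libraries of the β cell–like type and 451, 418, and 271 CPM in WT and 412, 439.5, and 453 CPM in KO B cell–like cells. Set against its constitutive partner, there were 0.370 ± 0.0555 Psmb8 UMIs per Psmb5 UMI in β cell–like, 0.999 ± 0.145 in macrophage-like, 4.05 ± 1.20 in B cell–like, 4.39 ± 0.595 in T cell–like, and 8.55 ± 2.99 in dendritic-like cells. Every macrophage-like library lay above every endocrine library in this ratio. Psmb9 per Psmb6 was 0.176 ± 0.0337 in β cell–like, 0.206 ± 0.0550 in macrophage-like, and 0.995 ± 0.474 in B cell–like cells, and the β and macrophage ranges overlapped. Psmb10 was 22.05, 37.8, and 26.9 CPM in WT and 27.6, 32.3, and 35.3 CPM in KO libraries of the β cell–like type, and per Psmb7 it was 0.537 ± 0.0524 there, 0.904 ± 0.202 in macrophage-like, and 1.22 ± 0.606 in B cell–like cells. Of the types compared, ductal-like cells had the lowest mean ratio for Psmb8 (0.167 ± 0.0942) and Psmb9 (0.0358 ± 0.0395), and endothelial-like cells for Psmb10 (0.253 ± 0.0529).

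The other class I heavy chains showed several patterns. H2-Q7, which encodes Qa-2, was highest in T cell–like cells among the 10 types compared, at 736, 612, and 455 CPM in WT and 508, 471, and 579 CPM in KO libraries. It was 199.8 ± 92.9 CPM in endothelial-like, 179 ± 61.6 CPM in B cell–like, 127 ± 82.7 CPM in stellate cell–like, and 74.2 ± 39.4 CPM in macrophage-like cells, whose ranges overlapped, and 1.49 ± 1.02 CPM in β cell–like cells. Its highest β cell–like values were in the replicate 2 libraries (2.46 and 3.04 CPM). H2-T23, which encodes Qa-1 and is read by inhibitory receptors on NK cells, was 226, 212, and 181 CPM in WT and 115, 139.9, and 225 CPM in KO B cell–like cells. Among endocrine types H2-T23 was higher in δ cell–like (45.3 to 86.8 CPM) than in β cell–like cells (11.0 to 18.2 CPM), without overlap. H2-M2, chosen after its values were seen, was 124, 81.1, and 58.3 CPM in WT and 124, 79.5, and 38.9 CPM in KO macrophage-like cells and 36.1 to 1827 CPM in dendritic-like cells, the highest from a library with 2 such cells. In the other types described here its mean was at most 1.44 CPM.

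H2-Q2, also chosen after its values were seen, had the reverse pattern. It was 97.7, 86.6, and 91.9 CPM in WT and 107, 79.2, and 92.5 CPM in KO α cell–like cells. In β cell–like cells it was 41.3, 54.5, and 50.4 CPM in WT and 47.7, 49.8, and 50.6 CPM in KO libraries, and in δ cell–like cells 60.8 ± 4.72 CPM, so that the lowest α cell–like library lay above the highest β and δ cell–like libraries. The immune types were lower, with 14.9 ± 10.6 CPM in B cell–like and 7.54 ± 3.89 CPM in macrophage-like cells. B cell–like cells also held Ins2 UMIs, at 14036 to 145705 CPM over the libraries. They held 159 H2-Q2 UMIs per 1000000 Ins2 UMIs, against 140.2 in β cell–like and 2589.5 in α cell–like cells. The part of free RNA in the B cell–like counts was not tested. H2-Q2 shared 2.25% of its 3′ windows, with H2-Q1, which had 7 UMIs in all.

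Class II was high in B cell–like, macrophage-like, and dendritic-like cells, the types known to present antigen to CD4 T cells. The 11 genes summed to 15510.2 ± 2481 CPM in B cell–like and 19817 ± 2718 CPM in macrophage-like cells and to 15.7 ± 12.3 CPM in β cell–like cells (n = 6). Cd74 was 8765, 6731, and 7342 CPM in WT and 8379.8, 5387, and 6986 CPM in KO B cell–like cells. In macrophage-like cells Cd74 was 8019, 11580.5, and 9602 CPM in WT and 10634, 9504, and 10403 CPM in KO libraries. H2-Aa, the α chain of I-A, was 3501, 2446, and 2953 CPM in WT and 2771, 2164, and 3259 CPM in KO B cell–like cells and 3549 ± 568 CPM in macrophage-like cells, and these overlapped. Its partner H2-Ab1 was 2505, 1712, and 1869 CPM in WT and 2144, 1548, and 2181 CPM in KO B cell–like cells and 3002 ± 503 CPM in macrophage-like cells. The I-E chain H2-Eb1 was 2451, 1863, and 1770.1 CPM in WT and 1798, 1574, and 2412 CPM in KO B cell–like cells and 3066 ± 519 CPM in macrophage-like cells. Relative to H2-Aa, H2-Ab1 and H2-Eb1 were both higher in macrophage-like cells. H2-Ab1 per H2-Aa was 0.701 ± 0.0476 in B cell–like and 0.846 ± 0.0437 in macrophage-like cells. H2-Eb1 per H2-Aa was 0.696 ± 0.0613 and 0.863 ± 0.0152. The libraries did not overlap in either ratio.

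The class II genes that edit peptides divided the presenting cells. H2-DMa was 404, 319, and 280.0 CPM in WT and 329.9, 288, and 423 CPM in KO B cell–like cells, against 114 ± 27.1 CPM in macrophage-like cells. The genes for its β chain went opposite ways. H2-DMb2 was 358, 256, and 163 CPM in WT and 198, 237, and 317 CPM in KO B cell–like cells and 2.85 ± 2.62 CPM in macrophage-like cells, whereas H2-DMb1 was 53.8 ± 6.03 CPM in B cell–like and 108 ± 25.4 CPM in macrophage-like cells. H2-DMb1 shared 10.3% of its 3′ windows with H2-DMb2, so reads could be split between them. H2-Ob, a chain of H2-O that restrains H2-DM, was 401, 272, and 280.0 CPM in WT and 462, 180.3, and 326 CPM in KO B cell–like cells and 4.19 ± 2.64 CPM in macrophage-like cells, and its partner H2-Oa was 178 ± 38.2 and 3.23 ± 1.86 CPM. Ciita, the transactivator of class II genes, was 165 ± 55.1 CPM in B cell–like and 11.1 ± 8.26 CPM in macrophage-like cells. In the Jchain-led cluster, whose cells came from the replicate 2 libraries (WT 55, KO 100) apart from 1 cell of WT replicate 1, Ciita was 4.22 and 4.96 CPM in WT and KO replicate 2, H2-Aa 213 and 260.2 CPM, and Cd74 2266 and 2432 CPM.

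**Figure D3:**
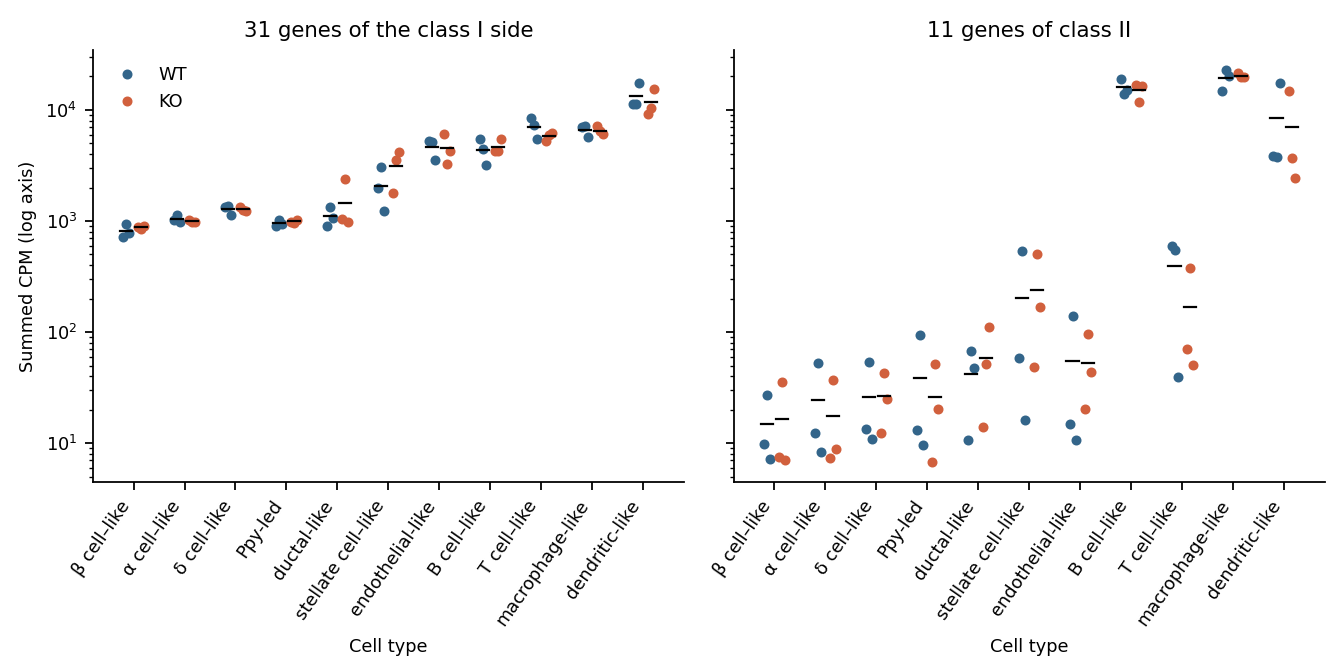
Summed CPM of the class I side (left) and of the 11 class II genes (right) on a log axis, 1 point per library, with bars at the mean of each genotype, for 11 cell types. WT and KO points overlap in each tested type, and the class II points of B cell–like, macrophage-like, and dendritic-like cells lie far above those of the endocrine types.

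Endocrine cells held few class II UMIs, and these moved with the library. The class II sum was 9.84, 27.3, and 7.19 CPM in WT and 7.55, 35.2, and 7.13 CPM in KO libraries of the β cell–like type. The replicate 2 library was the highest of its genotype in β, α, and δ cell–like cells alike. The replicate 2 libraries also held the most B cell–like cells and the most Igkc, an immunoglobulin gene of the B lineage, which was 4.92, 61.3, and 0.310 CPM in WT and 0.430, 81.9, and 0.577 CPM in KO libraries of the β cell–like type. The part of the B cells' RNA in these class II counts was not tested. Of the 4846 β cell–like cells, 3363 had no class II UMI, 1455 had 1 to 3, and 4 had 10 or more. With each cell thinned to 2000 UMIs, leaving out 130 shallower cells, 3.78% of β cell–like cells held a class II UMI (2.03% to 7.91% over libraries), against 5.96% of endothelial-like and 19.3% of T cell–like cells. Unthinned, the share was 30.8% in the mean of the libraries, at median depths of 21824 to 41507 UMIs. Mouse T cells are known to make little class II at rest, and most class II UMIs of the T cell–like type lay in a few of its cells. After thinning, the mean β cell–like share was below that of both types. Unthinned, it was above the endothelial-like share in each library, as in WT replicate 1 (31.7% against 16.1%), at a greater median depth. Whether β cells express class II was not tested.

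**Figure D4:**
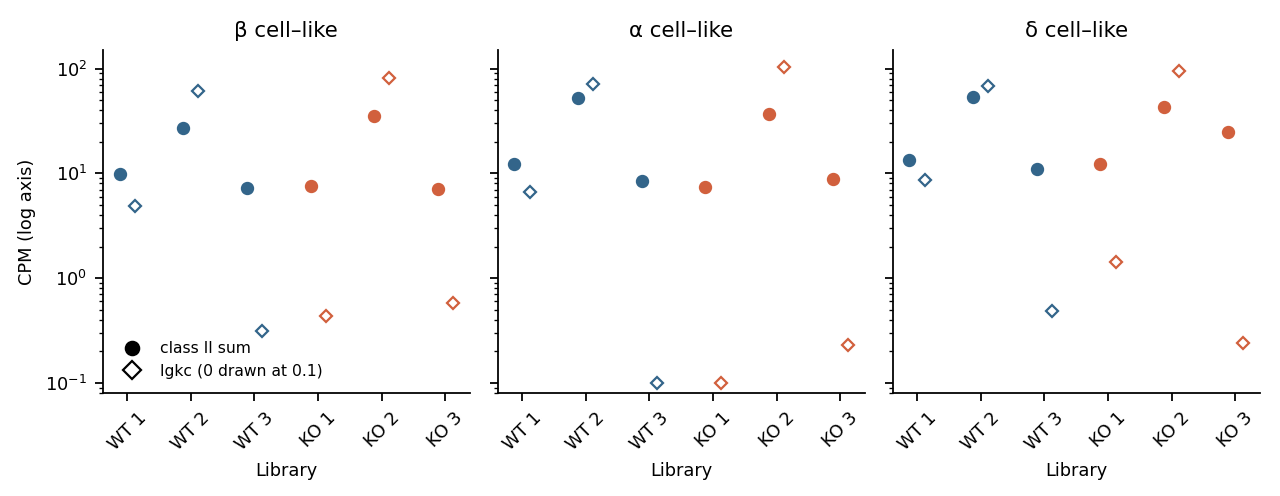
Summed class II level (filled circles) and Igkc level (open diamonds) in β, α, and δ cell–like cells of each library, in CPM on a log axis, blue for WT and orange for KO, with 0 drawn at 0.1. Both are highest in the replicate 2 library of each genotype in each of the 3 types.

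H2-DMa moved less with the library than Cd74. The β cell–like libraries held 3.17, 4.11, and 3.41 CPM in WT and 3.20, 4.01, and 3.25 CPM in KO, a range of less than 1.5-fold, whereas Cd74 was 2.75, 10.0, and 1.98 CPM in WT and 2.29, 14.2, and 1.78 CPM in KO libraries. Pooled over the libraries, β cell–like cells held 515 H2-DMa and 708 Cd74 UMIs, a ratio of 0.727, against 0.0501 in B cell–like and 0.0116 in macrophage-like cells. Where no immune UMI was present, H2-DMa in β cell–like cells was 4.30 ± 1.13 CPM, against 3.52 CPM in all of them. Other class II genes also remained in those cells. Cd74 was 4.67 ± 4.93 CPM (5.50 in all), H2-Aa 2.06 (2.21), H2-Ab1 2.03 (1.92), and H2-Eb1 1.63 (1.76). The source of these UMIs was not tested.

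To ask whether loss of 14-3-3ζ in β cells went with a different level of these genes, sums per library were compared between KO and WT with edgeR's quasi-likelihood test and Benjamini-Hochberg adjustment (FDR) over all genes tested. Genes were tested where over 15% of the WT or of the KO cells held a UMI, which 15 of the 43 genes met in β cell–like cells, none of them class II. None of the 15 was called, meaning FDR below 0.05 together with a log2 fold change beyond 0.1 either way, and 0.0108% of the 9234 genes tested were. DESeq2 called none of the 15, and 7 of all 9234 genes. At an unadjusted p under 0.05 there were 2 of 15, against 4.98% of all genes, and in 2 of 15 the libraries of the genotypes did not overlap, against 11.1%. The log2 fold change was above 0 in 11 of 15, against 50.8% of all genes, with a median of 0.06 for the 14 genes of the class I side and 0.00 for all genes.

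The 2 genes were Psmb9 and Tap2. Psmb9 was 11.3, 12.8, and 10.9 TMM-normalized CPM in WT and 14.6, 16.4, and 16.8 in KO β cell–like cells, so each KO library lay above each WT library. Its log2 fold change was 0.45 ± 0.10 (SE), with an unadjusted p = 0.00149 and an adjusted p = 0.895 by edgeR. With same-numbered libraries of the genotypes taken as a block, its adjusted p was 0.0667 by edgeR. Tap2, at 15.7, 14.6, and 14.2 in WT and 16.7, 17.9, and 17.5 in KO libraries, had a log2 fold change of 0.22 ± 0.08 (adjusted p = 0.895 by edgeR). Tap1, whose promoter window overlaps that of Psmb9, was 7.43, 5.28, and 4.80 in WT and 5.69, 4.65, and 5.49 in KO libraries, and the genotypes overlapped (−0.14 ± 0.18). The log2 fold changes of the classical heavy chains H2-K1 (0.10 ± 0.09) and H2-D1 (0.10 ± 0.08), of Tapbp (0.15 ± 0.09), Psmb8 (0.25 ± 0.16), Psmb10 (0.15 ± 0.15), and B2m (0.02 ± 0.26) did not pass the test, nor did those of H2-M3 (−0.14 ± 0.10) and H2-Q4 (−0.09 ± 0.14).

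**Figure D5:**
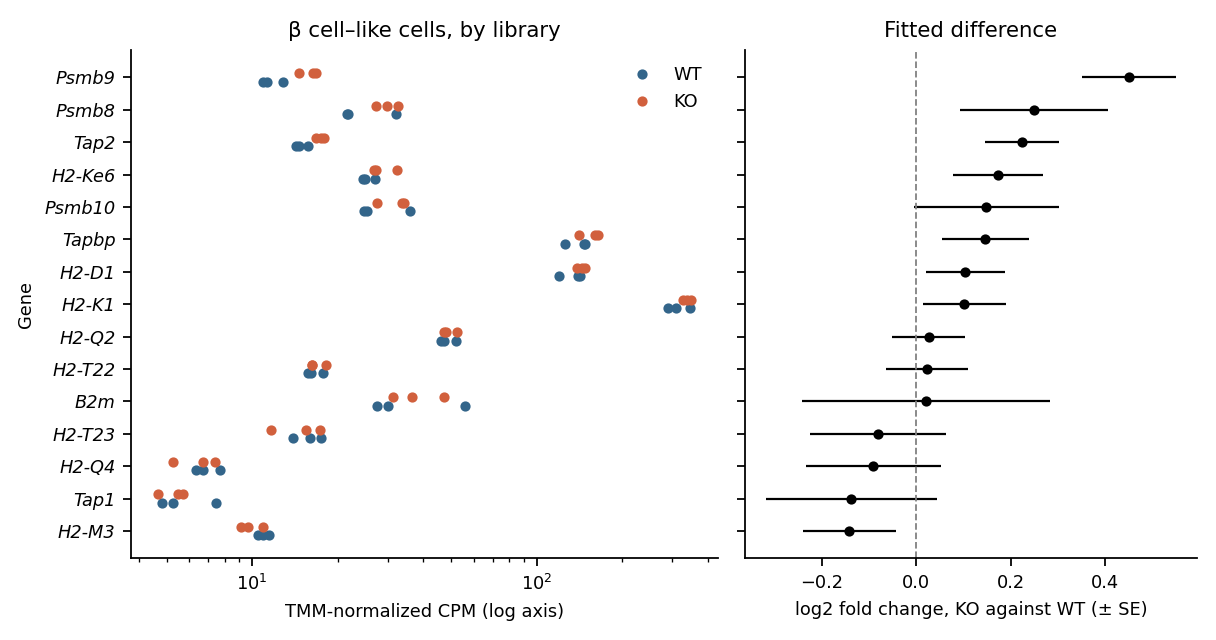
The 15 genes tested in β cell–like cells, with the TMM-normalized CPM of each library on a log axis (left, blue for WT, orange for KO) and the fitted log2 fold change of KO against WT with its SE (right). Psmb9 (0.45) and Tap2 (0.22) are the genes whose KO points all lie above the WT points.

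In the other 9 types none of the tested genes was called either. Their Ywhaz level is not given here, and their KO cells were not filtered on it. The Ppy-led libraries held 228495 to 312060 CPM of Ins2, against 300022 to 394502 CPM in β cell–like cells. Of all genes tested, 0.0199% were called in Ppy-led, 0.0139% in macrophage-like, and 0% in the other 7 types. DESeq2 called none of the 43 genes in any type. Of all genes it called 6 in Ppy-led, 5 in macrophage-like, and 1 each in ductal-like and δ cell–like cells. Over the 10 types there were 182 tests of 29 different genes, of which 7 had an unadjusted p under 0.05 and 9 had genotypes that did not overlap, against 3.92% and 9.48% of the tests of all genes. The lowest adjusted p was 0.759 by edgeR.

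By type, the genes with an unadjusted p under 0.05 were 1 of 14 in α cell–like cells, against 4.02% of all genes, 0 of 16 in δ cell–like (3%), 2 of 17 in Ppy-led (4.02%), 0 of 15 in ductal-like (2.04%), 0 of 16 in endothelial-like (3.44%), 0 of 21 in stellate cell–like (1.68%), 1 of 18 in T cell–like (6.19%), 1 of 23 in macrophage-like (6.29%), and 0 of 27 in B cell–like cells (6.66%). The genotypes did not overlap for 1 of 14 in α cell–like cells, against 9.34% of all genes, 1 of 16 in δ cell–like (8.89%), 2 of 17 in Ppy-led (10%), 1 of 18 in T cell–like (11.5%), and 2 of 23 in macrophage-like cells (11.8%). They overlapped for every gene tested in the ductal-like, endothelial-like, and stellate cell–like types and in B cell–like cells, where 8.73%, 8.49%, 6.84%, and 9.02% of all genes did not overlap.

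The gene with the lowest p differed from type to type. H2-T22, a γδ T cell ligand, was 38.8, 40.4, and 27.7 TMM-normalized CPM in WT and 46.2, 60.4, and 48.3 in KO macrophage-like cells, a log2 fold change of 0.52 ± 0.20 with KO above WT in all libraries (adjusted p = 0.759 by edgeR). It had the lowest p also in endothelial-like (0.41 ± 0.20) and ductal-like cells (0.78 ± 0.45), where the genotypes overlapped. In T cell–like cells H2-Q6, which also encodes Qa-2, was 141, 111, and 116 in WT and 84.7, 66.7, and 93.2 in KO libraries (−0.67 ± 0.24), with every KO library below every WT library. WT replicate 3 and KO replicate 1 gave 10 and 15 T cell–like cells. The type joins 2 clusters. The smaller, with S100a4 and Cxcr6 as its top genes, gave 15, 90, and 2 of 119, 509, and 10 cells in WT. It gave 2, 62, and 0 of 15, 1391, and 72 cells in KO. Without the filter on low counts, Cd74 was called lower in KO T cell–like cells (log2 fold change −1.20). That setting called 99 of all 13380 genes in this type, against 0 of 4236 with the filter. Of the 2116 cells of the type, 75 held 70.7% of its class II UMIs.

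In the α cell–like type, Psmb8 stood at 37.6, 54.9, and 41.3 TMM-normalized CPM in WT and 35.2, 37.5, and 37.0 in KO libraries (−0.30 ± 0.14), with KO below WT. In Ppy-led cells Tap2 was 16.4, 15.6, and 12.2 in WT and 19.6, 20.9, and 18.3 in KO libraries (0.46 ± 0.16), with KO above WT. In δ cell–like cells Tap1 was 8.44, 7.92, and 8.10 in WT and 6.29, 7.83, and 5.02 in KO libraries (−0.37 ± 0.22), with KO below WT. In B cell–like cells H2-Q7 was 186, 156, and 78.7 in WT and 180.0, 199, and 276 in KO libraries (0.55 ± 0.27), and the genotypes overlapped.

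Stellate cell–like cells had wide spread. Of 16 genes of the class I side tested there, 15 had a log2 fold change above 0, with a median of 0.75, whereas 51.5% of all genes lay above 0 with a median of 0.01. The class I sum was 1966, 3057, and 1229 CPM in WT and 1769.5, 3557, and 4145 CPM in KO stellate cell–like cells, so KO replicate 1 lay within the WT range, and the exact permutation test gave p = 0.3. H2-T23, the gene with the lowest p, was 26.6, 40.0, and 26.3 TMM-normalized CPM in WT and 45.2, 39.5, and 101 in KO libraries (0.92 ± 0.41). In this type 32 of 333 cells held 81.3% of the class II UMIs, with 10 or more each.

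The 2-sided exact permutation test of the summed levels, which cannot go below p = 0.1 with 3 against 3 libraries, gave p between 0.3 and 1 for class I and between 0.4 and 1 for class II over the 10 types. In β cell–like cells the class I sum was 817 ± 112 CPM in WT and 876 ± 30.6 CPM in KO (exact p = 0.5), and the class II sum 14.8 ± 10.9 and 16.6 ± 16.1 CPM (exact p = 0.9). In macrophage-like cells the class I sums were 6590.1 ± 790.1 and 6519 ± 548 CPM and the class II sums 19289.8 ± 4115 and 20345 ± 834 CPM. Whether the genotype difference of a gene in another type departed from that in β cell–like cells was tested with limma-voom. None of 128 differences passed an FDR of 0.05 (lowest adjusted p = 0.613), against 0.0145% of the differences over all genes. At an unadjusted p under 0.05 there were 10, against 4.39%.

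Other genes of the pathway and interferon response genes were counted beside these. Of 17 pathway genes not among the 43, 14 were tested in β cell–like cells. Their log2 fold changes were above 0 for 9 and below 0 for 5, and none was called. Of 20 interferon response genes, 7 were tested there, 6 above 0 and 1 below, and none was called. In no type was a gene of either list called. The interferon genes with a log2 fold change above 0, set beside the share of all genes above 0, were 7 of 7 (median 0.32, all genes 50.4%) in ductal-like cells, 11 of 13 (median 0.66, all genes 51.5%) in stellate cell–like, 9 of 10 (median 0.49, all genes 50.4%) in B cell–like, 11 of 16 (median 0.24, all genes 50.4%) in T cell–like, 6 of 9 (median 0.09, all genes 50.5%) in Ppy-led, 9 of 14 (median 0.14, all genes 49.2%) in macrophage-like, 4 of 8 (median −0.02, all genes 50.4%) in α cell–like, 6 of 14 (median −0.02, all genes 49.4%) in δ cell–like, and 3 of 11 (median −0.13, all genes 49.8%) in endothelial-like cells. Across types, Nlrc5, the transactivator of class I genes, was 0.683 CPM in β cell–like, 6.63 CPM in B cell–like, and 17.5 CPM in T cell–like cells.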

How the data were processed

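Droplet single-cell RNA-Seq was run on islets from 6 mice, 3 WT and 3 β14-3-3ζ–KO. The authors deposited raw UMI counts per gene and cell barcode, made with Cell Ranger 6.0.2 on mm10 per the submitters' processing notes, which also name Seurat. Groups were taken from the sample labels. The libraries held 4400 to 10722 barcodes and 74083947 to 98294915 UMIs, and pairs of libraries shared 7 to 27 barcodes.

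Cells with at least 500 genes and at most 10% mitochondrial UMIs were kept, and the top Scrublet scores (0.8% per 1000 barcodes) were removed as doublets. With Python 3.11.15 and scanpy 1.11.5, cells were clustered on 2000 variable genes (without the 43 genes described), 30 components, 15 neighbours, and Leiden resolution 1, giving 22 clusters. A cluster was named where at least 3 listed markers passed (1.5-fold, 10% of cells) and its median was at least 3500 UMIs. These names are rebuilt and may differ from the study's. From the KO libraries, 1284 β cell–like cells in which Ywhaz was detected were dropped.

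Counts were summed per library and type and tested with edgeR 4.0.16 (quasi-likelihood, TMM, R 4.3.3) over all genes that over 15% of the WT or of the KO cells held, with Benjamini-Hochberg adjustment. DESeq2 1.42.0 was an alternative, and limma 3.58.1 tested differences between types. Summed levels were compared by a 2-sided exact permutation test. The tests were checked on simulated data. Same-numbered libraries deviated together in 3 types (correlations 0.55, 0.50, and 0.22 for β, 0.23, 0.29, and 0.15 for macrophage, and 0.34, 0.27, and 0.11 for δ types), so a fit with the replicate block was also made. In each other type at least 1 correlation was below all of these, the lowest −0.157 (stellate cell–like). Other alternatives were the filter, the mitochondrial limit, the clustering, the scale, and leaving out each library.

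The genes and lists were chosen with earlier results of these data known. Values per library are given for the 8 class I side and 7 class II side genes with the highest mean CPM, for any called gene, and for the gene with the lowest p in each type.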

Additional observations from a re-analysis of the deposited data

How the results depend on the processing

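The count of called genes among the 43 was 0 in each type in which it could be computed under DESeq2, the 5% mitochondrial limit, the finer clustering, clustering with the 43 genes allowed, and, where they applied, keeping all KO β cell–like cells and leaving out endocrine cells with an immune UMI. Of all genes, these settings called at most 7 in a type (DESeq2, β cell–like). Leaving out each library in turn gave 0 called genes among the 43 in every type, and at most 3 among all genes. Without the filter on low counts, 1 of the 43 genes was called in T cell–like cells, Cd74, at −1.20 on the log2 scale. Of all 13380 genes, 99 were called there in that setting, and the cause was not tested.

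With the replicate number as a block, 0 of the MHC and antigen presentation genes tested were called in each type. Among all genes tested, this setting called 27 in β cell–like, 28 in macrophage-like, and 11 in endothelial-like cells. It called 9 in Ppy-led, 8 in δ cell–like, 7 in B cell–like, 7 in ductal-like, and 4 in α cell–like cells. In T cell–like and stellate cell–like cells it called 0. The pairing of same-numbered libraries was borne out in the β, δ, and macrophage types only. In β cell–like cells the adjusted p of Psmb9 was 0.0667 with the block (edgeR) and ranged from 0.0667 to 0.999 over its alternatives, and its log2 fold change ranged from 0.40 to 0.52 without 1 library. Taken within same-numbered libraries as a block, the log2 differences of the sums changed sign in δ cell–like cells for class I (0.00295) and in β cell–like (−0.00806) and endothelial-like cells (0.64) for class II.

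No summed level had an exact permutation p under 0.3, and several of these log2 differences changed sign with the setting. For class I, TMM-normalized library sizes gave 0.0112 in endothelial-like, 0.0698 in macrophage-like, and 0.0211 in δ cell–like cells. The total without hormone transcripts gave 0.0199 in macrophage-like and 0.00381 in δ cell–like cells. The 5% limit gave −0.0210 in Ppy-led and 0.0154 in macrophage-like cells, the finer clustering −0.0118 in Ppy-led and −0.0914 in ductal-like cells, and clustering with the 43 genes −0.15 in ductal-like and 0.0308 in δ cell–like cells. For class II, TMM sizes gave 0.0292 in endothelial-like cells, the 5% limit 0.0486 in α cell–like cells, the finer clustering −0.81 in ductal-like, 0.21 in endothelial-like, and 0.16 in α cell–like cells, and clustering with the 43 genes 0.14 for the α type and −0.54 for the δ type. The causes were not tested.

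Without 1 library, the class I log2 difference ranged over 0.0209 to 0.21 in β cell–like, −0.12 to −0.0181 in α cell–like, −0.0878 to 0.0537 in δ cell–like, 0.0175 to 0.11 in Ppy-led, −0.13 to 0.64 in ductal-like, −0.31 to 0.16 in endothelial-like, 0.33 to 0.98 in stellate cell–like, −0.44 to −0.14 in T cell–like, −0.11 to 0.0406 in macrophage-like, and −0.10 to 0.29 in B cell–like cells. The class II difference ranged over −1.01 to 0.97 in β cell–like, −1.59 to 0.78 in α cell–like, −0.48 to 1.14 in δ cell–like, −1.51 to 1.20 in Ppy-led, −0.37 to 1.00 in ductal-like, −0.79 to 2.06 in endothelial-like, −0.91 to 2.70 in stellate cell–like, −2.71 to −0.82 in T cell–like, −0.0801 to 0.22 in macrophage-like, and −0.19 to 0.0463 in B cell–like cells.

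Without thinning, the share of cells with a class II UMI went from 3.78% to 30.8% in β cell–like, from 3.70% to 21.997% in α cell–like, from 4.84% to 32.4% in δ cell–like, and from 9.03% to 41.0% in Ppy-led cells, since deeper cells hold more UMIs of every gene. The scale without hormone transcripts and the scale per cell were chosen after seeing the data, and the number of genes higher in immune types in all 6 libraries was 28 and 20 on them, against 28 in CPM.

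With 3 libraries per genotype the exact test cannot pass 0.05. T cell–like and B cell–like sums rest on as few as 10 and 13 cells in a library. Low counts limit class II in endocrine cells.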
